A study of Mus musculus with 2 samples.

Results

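The cell cycle genes described here are 38 mouse genes that are switched on in dividing cells, out of 31053 genes counted in cells of a tumour. They were chosen by name: 12 mark entry into and passage through DNA synthesis (G1/S members), 24 mark the approach to and passage through mitosis (G2/M members) and 2, Stmn1 and Tubb5, encode the microtubule regulator stathmin and a beta-tubulin. All 38 had UMIs in both libraries. The tumours were fibrosarcomas, cancers of connective tissue, grown from syngeneic cells under the skin of C57BL/6 mice, and the study set an injection of autologous erythrocytes against saline. There were 2 single-cell RNA libraries, 1 titled Blood and 1 titled Control, both from wild-type C57BL/6 mice. The treatment label of the library titled Blood reads PBS and that of the library titled Control reads erythrocytes, so the labels contradict the titles. The libraries are therefore named by title, and whether a value stands for erythrocytes or for saline is unknown. There is 1 library per title, so differences lack a replicate check, and every interval below is a 95% interval that covers counting error only. The sources used here name neither the tumour line nor the age of the mice, and do not say how many animals were pooled.

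A cell that divides first licenses its replication origins with the MCM helicase, then copies its DNA with nucleotides made by enzymes such as ribonucleotide reductase and thymidylate synthase, and then builds a spindle and separates its chromosomes under the control of cyclin-dependent kinase 1 and the anaphase-promoting complex. The transcripts for these steps are made in waves. E2F factors drive the G1/S wave, while a later wave of mitotic genes is driven through CCAAT boxes and CHR elements by factors that include B-Myb and FoxM1. Macrophages in tumours are fed by blood monocytes and can also divide in place, activated T cells divide, and mature neutrophils have left the cycle.

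Letters of the elements that drive these waves stand in many of the members' promoters. Of the 38 members, 31 had a promoter entry in RefSeq (GRCm38.p6), 250 bases before to 50 bases after the start, and 29 of these were G1/S members (10) or G2/M members other than Hmgb2 (19). The CHR letters TTTGAA, searched on both strands, stood in 14 of the 19 G2/M promoters and in 1 of the 10 G1/S promoters, that of Mcm2, against 17.9% of all 32851 promoters. An E2F-type site, TTCCCGC or TTGGCGC on either strand, stood in 5 of the 10 G1/S promoters (Mcm3, Mcm5, Mcm6, Mcm7 and Rrm1) and in 3 of the 19 G2/M promoters (Cdk1, Ccnb1 and Mki67), against 6.81% of all promoters. CCAAT boxes stood in 8 of the 10 and 17 of the 19, against 37.4% of all promoters. TTGGCGC can overlap a CCAAT box read backwards, and without the overlapping sites the counts were 5 of 10 and 2 of 19, against 6.42% of all promoters. These matches describe the letters and are not binding sites shown by these data. The 160 bases before the start of 3 G2/M and 2 G1/S members are printed because they hold the letters and because the waves are compared below. Every CCAAT, CHR and E2F-type match is in capitals, and no link between letters and levels was tested.
Cdc20 (chr4:118437344-118437503, minus strand): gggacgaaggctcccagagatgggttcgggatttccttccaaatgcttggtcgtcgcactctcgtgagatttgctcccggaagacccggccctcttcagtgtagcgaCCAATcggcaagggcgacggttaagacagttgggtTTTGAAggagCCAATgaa
Ube2c (chr2:164769769-164769928, plus strand): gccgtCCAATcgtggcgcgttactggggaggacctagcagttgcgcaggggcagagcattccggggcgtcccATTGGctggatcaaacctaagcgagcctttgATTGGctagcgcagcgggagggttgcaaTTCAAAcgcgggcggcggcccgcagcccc
Top2a (chr11:99024190-99024349, minus strand): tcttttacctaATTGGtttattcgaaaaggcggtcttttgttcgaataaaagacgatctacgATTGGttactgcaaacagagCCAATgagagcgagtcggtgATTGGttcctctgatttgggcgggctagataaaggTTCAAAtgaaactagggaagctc
Mcm6 (chr1:128359706-128359865, minus strand): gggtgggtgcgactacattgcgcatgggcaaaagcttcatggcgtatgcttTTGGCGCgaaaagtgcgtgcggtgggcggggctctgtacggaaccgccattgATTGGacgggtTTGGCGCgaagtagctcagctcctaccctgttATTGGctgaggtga
Rrm1 (chr7:102441535-102441694, plus strand): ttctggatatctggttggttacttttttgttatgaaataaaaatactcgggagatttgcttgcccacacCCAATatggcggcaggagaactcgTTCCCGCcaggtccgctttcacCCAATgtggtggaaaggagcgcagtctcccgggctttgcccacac
In the first 3 the CHR letters begin 18, 29 and 23 bases before the start, each with at least 1 CCAAT box further upstream. In Mcm6 a pair of E2F-type sites begins 109 and 46 bases before the start, and in Rrm1 a single one begins 67 bases before it.

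There were 12057 barcodes with 115066023 UMIs in the library titled Blood and 9475 barcodes with 115272096 UMIs in the library titled Control. After filters on depth and mitochondrial reads and removal of called doublets, 11339 and 8828 cells were kept, with medians of 6566 and 9246.5 UMIs. Cells were clustered with the cell cycle genes left out of the variable genes and named from marker genes, so that a class name does not rest on the members. Macrophage-like cells made up 42.0% of kept cells titled Blood and 54.6% of those titled Control, and mesenchymal-like cells, the class in which fibrosarcoma cells and host fibroblasts would fall, only 0.476% and 1.16%. Neutrophil-like cells made up 15.7% titled Blood and 1.46% titled Control.

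Some barcodes were found in both libraries: 349 in all, 340 with both copies among the cells that passed the filters. The copy with more UMIs held a median of 51.4 times as many as the other, and it was in the library titled Blood for 113 barcodes and in the library titled Control for 227. Shared barcodes were rare among T cell-like cells (5 of 1289 titled Blood and 3 of 813 titled Control) and macrophage-like cells (53 of 4759 and 94 of 4824). They made up most mesenchymal-like cells, 47 of 54 titled Blood and 84 of 102 titled Control. Osteoclast-like cells held 45 of 85 and 45 of 98. Called shares of osteoclast-like and mesenchymal-like cells, and some medians, shares and ratios below, are given with and without them. Other results include them, among them the ratios of single members in macrophage-like, T cell-like, NK cell-like and conventional DC-like cells. How the copies arose was not tested.

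To put classes of unequal depth on 1 footing, each cell was thinned to 1500 UMIs and called cycling when at least 2 of the 12 G1/S members or at least 2 of 23 G2/M members had a UMI. Hmgb2 was left out of the call. A call counts transcripts, and at this depth it misses cells: a called cell is a cell with members' transcripts, not a cell seen to divide. Shallower cells were set aside, 133 of 4759 macrophage-like cells titled Blood and 82 of 4824 titled Control. Mature neutrophils should lack these transcripts, and of neutrophil-like cells 15 of 1214 titled Blood (1.24%, exact interval 0.693 to 2.03%) and 1 of 108 titled Control (0.926%, 0.023 to 5.05%) were called, at medians of 1749 and 1962 UMIs per cell. Shares that do not lie above this level are read as background.

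Of the named classes, osteoclast-like and mesenchymal-like cells had the largest shares of called cells. Osteoclast-like cells, led by Ctsk and Acp5, the enzymes of bone resorption, stood at 62.3% titled Blood (38 of 61, 48.96 to 74.4%) and 47.6% titled Control (40 of 84, 36.6 to 58.8%). Among mesenchymal-like cells, led by the collagen genes Col3a1 and Col1a1, 51.9% titled Blood (28 of 54, 37.8 to 65.7%) and 56.9% titled Control (58 of 102, 46.7 to 66.6%) were called. The intervals of these classes overlapped in both libraries. Without the shared barcodes 3 of 7 mesenchymal-like cells titled Blood and 9 of 18 titled Control were called, and 23 of 39 and 26 of 53 osteoclast-like cells. A cluster without a name, led by Fabp4, Defb1 and Igfbp7, held few cells deep enough to call, and of these 52 of 73 titled Blood and 64 of 95 titled Control were called.

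Macrophage-like cells came next, with 24.5% called in the library titled Blood (1134 of 4626, 23.3 to 25.8%) and 31.5% in the library titled Control (1495 of 4742, 30.2 to 32.9%). The ratio of these shares was 0.778 (0.728 to 0.830), and 0.789 (0.738 to 0.844) without shared barcodes. Without thinning 72.4% titled Blood and 78.8% titled Control were called, a ratio of 0.919. Among T cell-like cells 14.5% titled Blood (12.6 to 16.6%) and 15.8% titled Control (13.3 to 18.6%) were called, a ratio of 0.919 whose interval, 0.744 to 1.14, spans 1. Conventional DC-like cells, which present antigen to T cells, gave 13.2% titled Blood and 12.9% titled Control, a ratio of 1.02 (0.629 to 1.66). NK cell-like cells gave 30 of 375 titled Blood and 46 of 390 titled Control (11.8%), a ratio of 0.678 (0.439 to 1.05) that became 0.364 with a limit of 3 members. Monocyte-like cells, at 3.24% titled Blood and 4.55% titled Control, lay far below macrophages; titled Control their share was within the neutrophil-like interval. Their ratio of 0.711 (0.454 to 1.11) also spans 1, and it was 1.41 with called doublets kept. Migratory DC-like cells gave 6 of 58 titled Blood and 3 of 71 titled Control, and B cell-like cells 2 of 59 and 1 of 34; the exact intervals of B cell-like cells in both libraries, and of migratory DC-like cells titled Control (0.880 to 11.9%), overlap those of neutrophil-like cells. Plasmacytoid DC-like cells, with 0 of 4 titled Blood and 1 of 23 titled Control, were too few: the exact interval for 0 of 4 reaches 60.2%. Over all kept cells 15.97% titled Blood and 23.7% titled Control were called, a ratio of 0.674 (0.635 to 0.714), which also moves with the larger share of neutrophil-like cells in the library titled Blood.

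**Figure D1:**
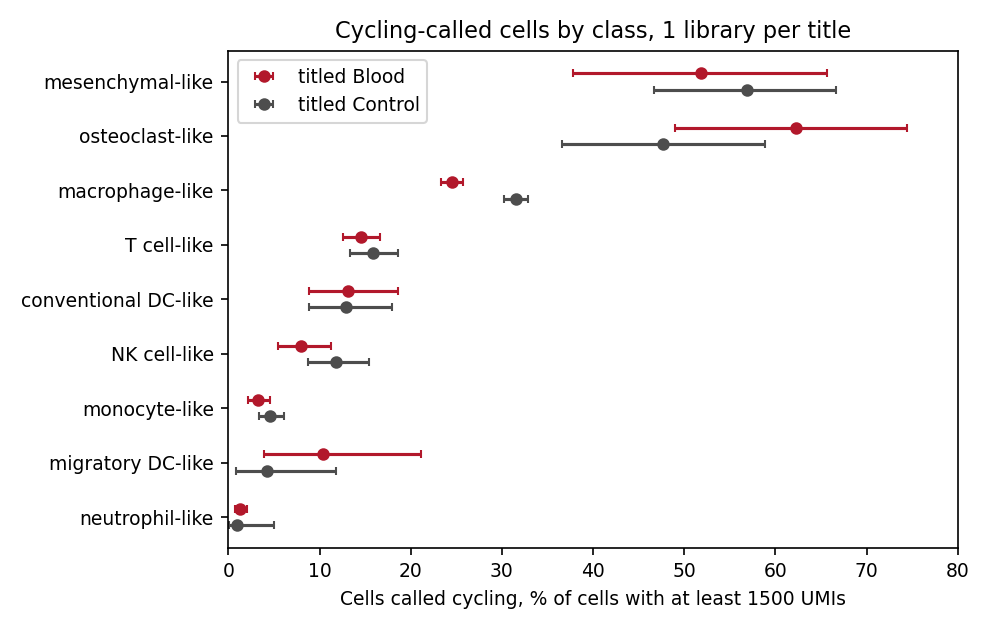
Share of cells called cycling (x axis, percent of cells with at least 1500 UMIs) in each class with at least 50 such cells in both libraries; points are 1 library each, titled Blood above titled Control, and bars are exact 95% intervals for counting error. Mesenchymal-like and osteoclast-like cells lie above 47% in both libraries, and the intervals of the libraries are apart in macrophage-like cells, at 24.5% titled Blood and 31.5% titled Control.

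The macrophage difference was present in every macrophage cluster of useful size. Of 8 macrophage-like clusters, 6 had at least 100 cells in both libraries, and the called share was lower titled Blood in all 6. Of these 6, the cluster led by Cx3cr1, the fractalkine receptor, had the largest called share, 38.5% titled Blood and 46.2% titled Control; replication genes outside the lists, such as Pclaf, were also among its leading genes, so its share is not independent of how the cluster was formed. The cluster led by Ccl8 and Folr2 gave 26.1% titled Blood and 38.02% titled Control, and the one led by Cxcl9, an interferon-gamma target, 27.2% and 34.3%. The cluster led by the interferon-stimulated genes Ifit3 and Ifit2 gave 17.3% titled Blood and 25.1% titled Control. The lowest shares were in the cluster led by the MHC class II genes H2-Eb1 and H2-Ab1, with 11.01% and 15.01%, and in the one led by Gpnmb and the iron exporter gene Slc40a1, with 9.50% and 16.3%. Taken alone, the intervals of the libraries were apart in the Cx3cr1, Ccl8, Ifit3 and H2-Eb1 clusters and overlapped in the Gpnmb cluster (5.82 to 14.4% and 9.82 to 24.9%) and the Cxcl9 cluster (23.4 to 31.1% and 30.03 to 38.8%). Among the smaller macrophage-like clusters, one of 17 and 23 cells had 58.8% titled Blood and 71.4% titled Control called; lymphocyte genes such as Gzma and Trbc1 were among its leading genes against all cells, and without it the ratio of the macrophage-like shares was 0.778. A cluster without a name, led by Retnla and Lyve1, gave 5.08% titled Blood (3.13 to 7.73%) and 17.6% titled Control (13.2 to 22.9%). Among T cells the CD8 cluster gave 17.2% and 19.9%, the Foxp3 cluster, marked by the regulatory T cell factor, 16.8% and 19.2%, the Ccl1 and Cd4 cluster 7.87% and 11.4%, and the small cluster led by Tcf7 and Lef1, factors of naive and memory T cells, 5.26% and 5.21%. Monocyte-like cells split into a cluster led by Ly6i and Chil3, with 3.38% and 5.58%, and one led by Ace, with 2.82% and 0.952%.

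**Figure D2:**
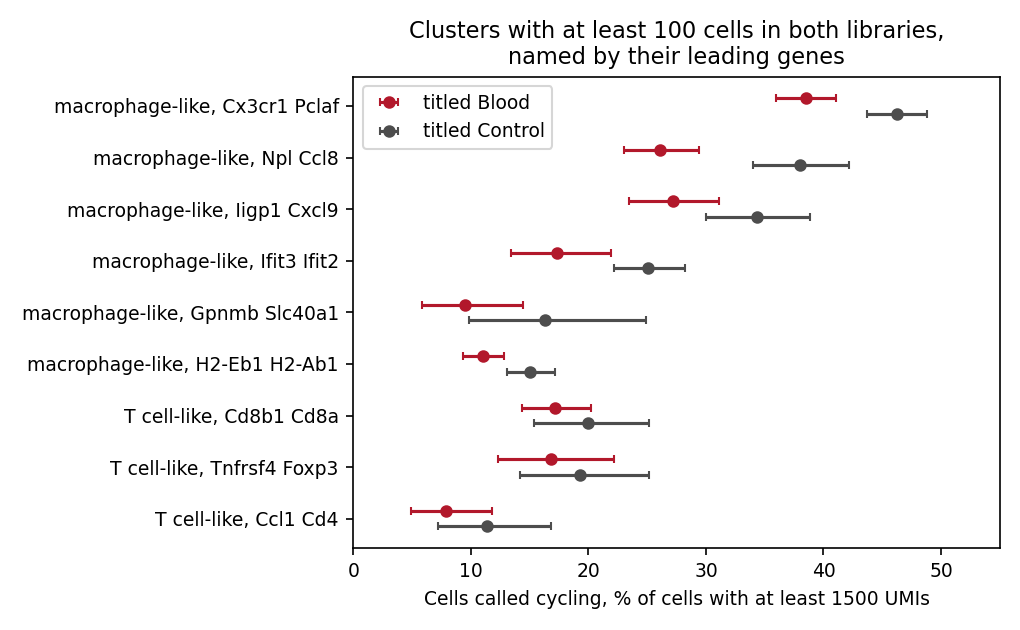
Share of cells called cycling (x axis, percent of cells with at least 1500 UMIs) in macrophage-like and T cell-like clusters with at least 100 cells in both libraries, each named by its class and 2 of its leading genes; titled Blood stands above titled Control, with exact 95% intervals for counting error. All 9 clusters have the lower point in the library titled Blood, from 38.5% against 46.2% in the Cx3cr1 cluster to 7.87% against 11.4% in the Cd4 cluster.

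Gene levels were summed over the cells of a class and given as CPM, counts scaled to the same total of UMIs in every class. Fewer cycling cells and less transcript per cycling cell cannot be told apart in such sums, and so both are taken up below. In macrophage-like cells all 38 members passed the low-value limit of 10 CPM in either library and 10 counts. The conditional binomial interval of the ratio, titled Blood over titled Control, lay below 1 for 37 of them and spanned 1 for Ccne2. Their median log2 ratio of CPM plus 5 was -0.28, beside 0.01 over all 7765 genes measured in that class. Differences were small: 0 of 38 members reached 1.5-fold on that scale in either direction, where 0.914% of all measured genes were lower by that much and 0.399% higher.

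The G1/S members had a median log2 ratio of -0.21. Of the MCM helicase subunits, Mcm2 had 37.5 CPM titled Blood and 46.7 CPM titled Control, Mcm3 80.7 and 92.9, Mcm4 31.1 and 37.5, Mcm5 59.2 and 71.9, Mcm6 61.7 and 76.8, and Mcm7 51.9 and 64.2. All 6 were lower titled Blood, by ratios between 0.803 for Mcm2 and 0.869 for Mcm3. Of the genes of DNA and nucleotide synthesis, Pcna and Rrm1 had ratios nearer 1 than any MCM gene, while Rrm2 and Tyms lay within the MCM range. Pcna, the sliding clamp of the replication fork, had 82.2 CPM titled Blood and 85.9 CPM titled Control (ratio 0.957, 0.924 to 0.991), and Rrm1, the large subunit of ribonucleotide reductase, 78.0 and 84.6. Its small subunit Rrm2 had 34.2 CPM titled Blood and 40.4 CPM titled Control, and Tyms, thymidylate synthase, 42.1 and 49.5. Of the E cyclins, which start the G1/S transition with Cdk2, Ccne1 had 14.8 CPM titled Blood and 17.8 CPM titled Control, whereas Ccne2 had 13.7 and 12.7, a ratio of 1.08 (0.989 to 1.18).

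The G2/M members other than Hmgb2 had a median log2 ratio of -0.32. Cdc20, which activates the anaphase-promoting complex, had 20.6 CPM titled Blood and 31.4 CPM titled Control, a ratio of 0.655 (0.614 to 0.699) and a log2 ratio of -0.51, the lowest of all members. Ube2c, the ubiquitin-conjugating enzyme of that complex, had 90.8 CPM titled Blood and 126.5 CPM titled Control, a ratio of 0.717 (0.695 to 0.740). Without a pseudocount only the ratio of Cdc20 passes 1.5-fold. The B cyclins had ratios of 0.698 and 0.702, with 21.4 CPM titled Blood and 30.7 CPM titled Control for Ccnb1 and 30.7 and 43.8 for Ccnb2. Their kinase Cdk1 had 58.1 CPM titled Blood and 73.6 CPM titled Control, cyclin A2 (Ccna2) 36.8 and 45.9, and the mitotic kinases Plk1 22.1 and 30.4, Aurkb 25.4 and 32.9, and Aurka 19.5 and 22.9. Every kinase and cyclin of mitosis was thus lower titled Blood, from Ccnb1 at a ratio of 0.698 to Aurka at 0.854.

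Spindle genes lay in the same range. Tpx2, a spindle assembly factor, had 44.4 CPM titled Blood and 57.0 CPM titled Control, the kinesins Kif11 25.3 and 29.5 and Kif20a 13.3 and 18.2, Nusap1 36.1 and 44.5, and Prc1, which bundles the midzone microtubules, 44.5 and 51.0. The chromosomal passenger proteins Birc5 (survivin) and Cdca8 (borealin) had 89.6 and 47.3 CPM titled Blood, against 116.4 and 60.2 CPM titled Control. Of the kinetochore and checkpoint genes, Cenpa, the centromeric histone, had 71.5 CPM titled Blood and 88.9 CPM titled Control, the kinesin Cenpe 46.9 and 64.1, Cenpf 47.0 and 57.9, and the checkpoint kinases Bub1 16.7 and 21.4 and Bub1b 29.5 and 35.01. Prc1 showed the smallest difference of the G2/M members, with a ratio of 0.873. Mki67, the Ki-67 protein of the chromosome surface, had 124.5 CPM titled Blood and 148.6 CPM titled Control, and Top2a, the topoisomerase that untangles sister chromatids, 147.6 and 185.1. Hmgb2, a chromatin protein, had 422.8 CPM titled Blood and 546.1 CPM titled Control, Stmn1 229.6 and 288.9, and Tubb5 661.9 and 714.4, the last with a ratio of only 0.927 (0.915 to 0.938). Cells of shared barcodes held 6.49% of the G2/M UMIs of macrophage-like cells titled Blood and 12.02% titled Control; without them the median log2 ratio was -0.26 over the G2/M members and -0.17 over the G1/S members, with 23 of 23 and 11 of 12 below 0.

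**Figure D3:**
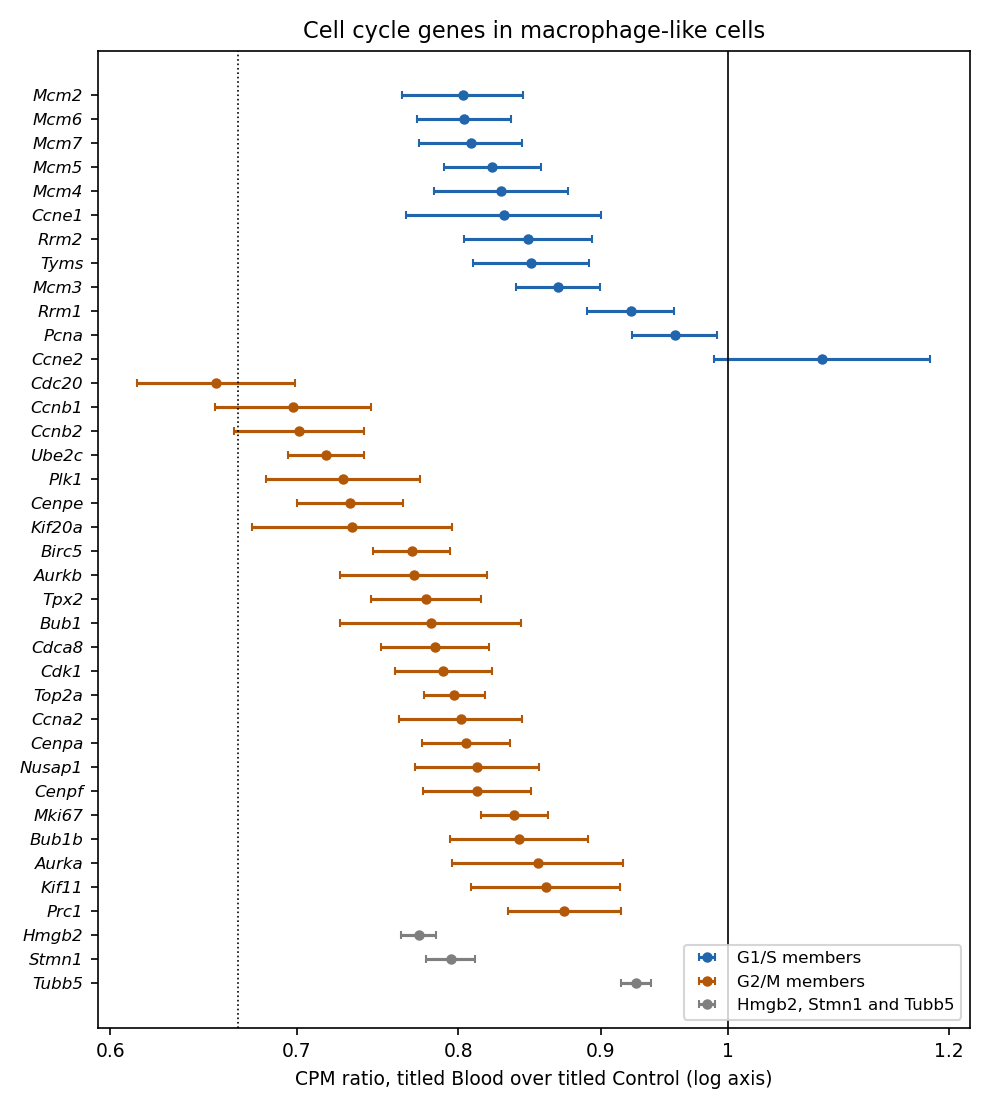
CPM ratio of each of the 38 members in macrophage-like cells, titled Blood over titled Control (x axis, log scale, no pseudocount), with exact conditional binomial 95% intervals for counting error; the solid line marks equal levels and the dotted line a 1.5-fold lower level. All members but Ccne2 lie below 1, with G2/M members from Cdc20 at 0.655 to Prc1 at 0.873.

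The replication and further mitosis genes of the other lists stood in the same direction in macrophage-like cells. Of 35 genes of replication origins and forks 30 were measured, 30 were below 0 and their median log2 ratio was -0.18; Tk1, thymidine kinase, had 49.5 CPM titled Blood and 59.8 CPM titled Control. Of 64 further mitosis genes 53 were measured and 52 were below 0, with a median of -0.23; Hmmr, which acts at the spindle, had 25.9 CPM titled Blood and 32.5 CPM titled Control. Of 13 histone genes 10 were measured and 8 were below 0, and Hist1h2ap was at least 1.5-fold lower, with 107 CPM titled Blood and 163 CPM titled Control. Histone genes of this kind are nearly alike and mostly lack a poly(A) tail, so single values are uncertain. The factors of the waves differed less: of 12 genes of E2F, FoxM1, B-Myb and their partners 10 were measured with a median of -0.09, among them E2f1 with 36.6 CPM titled Blood and 39.1 CPM titled Control and Foxm1 with 13.4 and 15.6. The median was -0.0026 over 9 measured genes of the CDK inhibitors and the Rb family, 5 of them below 0, where Cdkn1b (p27) had 42.7 CPM titled Blood and 41.8 CPM titled Control. Among 8 G1 cyclins and kinases 5 were below 0 and Ccnd2, cyclin D2, was at least 1.5-fold lower, with 80.7 CPM titled Blood and 140.4 CPM titled Control, beside Ccnd1 with 220.5 and 265.3.

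Within the called macrophage-like cells the members stood at nearly the same level in both libraries. Over the 38 members the median log2 ratio among called cells was -0.0054, with 20 of 38 below 0 and 0 past 1.5-fold in either direction. These cells were chosen by the same members, so the values are a description. Top2a, with the calls made without it, had 431.4 CPM titled Blood and 429.9 CPM titled Control in called cells, and Mki67 362.8 and 346.1. At the ends of the range Cdc20 had 57.5 CPM titled Blood and 70.0 CPM titled Control, and Ccne2 36.7 and 27.1. In cells not called, Top2a had 17.1 CPM titled Blood and 24.1 CPM titled Control and Mki67 14.99 and 18.7, whereas Tubb5 still had 398 and 390.2. Called cells were deeper than the others, with medians of 19808.5 and 13480 UMIs titled Blood and 20291 and 12949 UMIs titled Control.

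Members differed in how far they were limited to called cells, when each was left out of the call that it was measured against. In macrophage-like cells Nusap1 had 96.2% of its UMIs in called cells titled Blood and 96.9% titled Control, and Plk1 94.4% and 94.6%. Both are genes of mitosis. At the other end Mcm3 had 56.9% titled Blood and 60.8% titled Control, Pcna 57.5% and 62.6%, and Tubb5 59.1% and 67.6%. Of cells not called, 43.3% titled Blood and 44.0% titled Control still had a Pcna UMI at full depth, against 2.32% and 2.96% for Nusap1. Of the G2/M members Cenpa had the smallest share, 69.5% titled Blood and 72.9% titled Control. The G1/S members reached up to 91.3% in both libraries, for Rrm2, so the ranges of the waves overlap.

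The balance of the waves differed between classes. Of the UMIs of the 12 G1/S and 23 G2/M members together, the G1/S members held 34.6% titled Blood (34.3 to 34.9%) and 32.5% titled Control (32.2 to 32.7%) in macrophage-like cells. The share was lower in mesenchymal-like cells, at 22.8% and 24.6%, and in osteoclast-like cells, at 22.5% and 25.3%. It was higher in NK cell-like cells, at 45.6% and 43.2%, and in monocyte-like cells, at 43.3% and 41.9%. Neutrophil-like cells, which were rarely called, stood at 44.6% titled Blood and 41.9% titled Control, the latter on 13 G1/S and 18 G2/M UMIs. The share counts the UMIs of all cells of a class, called or not, so a higher share is not read as dividing cells tilted towards DNA synthesis. In conventional DC-like cells it was 33.7% titled Blood and 31.2% titled Control. Among these classes the intervals of the libraries were apart in macrophage-like, mesenchymal-like and osteoclast-like cells. Without shared barcodes they were apart only in macrophage-like cells, at 35.4% titled Blood and 33.5% titled Control; the shares were then 17.2% and 23.7% in mesenchymal-like, 26.9% and 28.5% in osteoclast-like and 35.2% and 37.6% in conventional DC-like cells, the last with the order turned. The small migratory DC-like class, 67 cells titled Blood and 75 titled Control, had shares of 21.2% (18.1 to 24.5%) and 41.7% (35.6 to 47.96%) on 6 and 3 called cells. Without shared barcodes its shares were 19.1% and 41.3%. Counted by cells, 33.3% of called macrophage-like cells titled Blood and 30.6% of those titled Control had G1/S members only, and 39.5% and 42.9% had G2/M members only. Cells past the G1/S limit made up 14.8% of macrophage-like cells titled Blood and 18.0% of those titled Control, and cells past the G2/M limit 16.3% and 21.9%, so both waves were less frequent titled Blood.

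Leaving out classes of under 100 cells in either library, the G1/S share differed most between the libraries in T cell-like cells. Their G1/S members held 43.1% of the phase UMIs titled Blood (42.0 to 44.2%) and 33.9% titled Control (32.8 to 35%). The 11 measured G1/S members had a median log2 ratio of 0.03 and the 22 measured G2/M members one of -0.50, with 22 of 22 below 0. At least 1.5-fold lower were 8 of the 36 measured members, all of them of the G2/M wave, where 0.968% of 7750 measured genes were. At least 1.5-fold higher were 0 members, where 0.594% of genes were. Of the 8, Cdc20, Plk1 and Bub1 passed the limit of 10 CPM only titled Control. Without that limit the medians were -0.03 over all 12 G1/S and -0.51 over all 23 G2/M members. Cdc20 was lowest, with 9.64 CPM titled Blood (65 UMIs) and 22.5 CPM titled Control (103 UMIs), a log2 ratio of -0.91. Tpx2 had 21.1 CPM titled Blood and 36.7 CPM titled Control, Ube2c 46.9 and 80.6, Cenpe 20.2 and 36.5, Top2a 105.0 and 134.6, and Mki67 105.1 and 141.4. Mcm6 stood at the other end with 94.9 CPM titled Blood and 84.1 CPM titled Control, a log2 ratio of 0.16, and Pcna had 83.3 and 76.3. The members with the most UMIs were Hmgb2, with 833 CPM titled Blood and 905 CPM titled Control, Tubb5, with 340.9 and 403.6, and Stmn1, with 152.9 and 177.9.

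How many members pass 1.5-fold here depended on the cells and their weights, and the G2/M median stayed below 0 in each of 4 alternatives. The 3 T cell-like cells of shared barcodes titled Control held 8.01% of the G2/M UMIs of that class and 1.09% of all its UMIs, and without shared barcodes 3 of 35 measured members were at least 1.5-fold lower, with a G2/M median of -0.45 and G1/S shares of 42.8% and 35.3%. With clusters given equal weight 10 of 36 were and the G2/M median was -0.58. When every cell was given the same weight, by the mean of each cell's CPM, 0 of 29 were. The G2/M median was then -0.16, with only 18 of 23 members below 0. Macrophage RNA also differed between the libraries: cells with at least 5 UMIs of C1qa, C1qb and C1qc numbered 26 of 1289 titled Blood and 32 of 813 titled Control, 8 and 9 of them called. Without them 5 of 36 members were at least 1.5-fold lower, and the G2/M median was -0.49 with 23 of 23 below 0, close to the -0.51 over the same 23 with them. The summed level of the 10 macrophage markers was 609 CPM in all T cell-like cells titled Blood and 818 CPM titled Control; it was 561 CPM in called and 608 CPM in other T cell-like cells titled Blood, and 826 and 800 CPM titled Control, with no marker at 0. MHC class II genes, which mouse T cells do not make, were higher in called than in other T cell-like cells titled Control (6 of 6 measured above 0, median log2 ratio 0.68) and not titled Blood (0 of 5, median -0.19). Counted by cells, where each counts once, 49.7% of called T cell-like cells titled Blood (42.2 to 57.3%) and 40.5% of those titled Control (31.7 to 49.8%) had G1/S members only, and 22.3% and 33.1% had G2/M members only, with intervals that overlap.

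**Figure D4:**
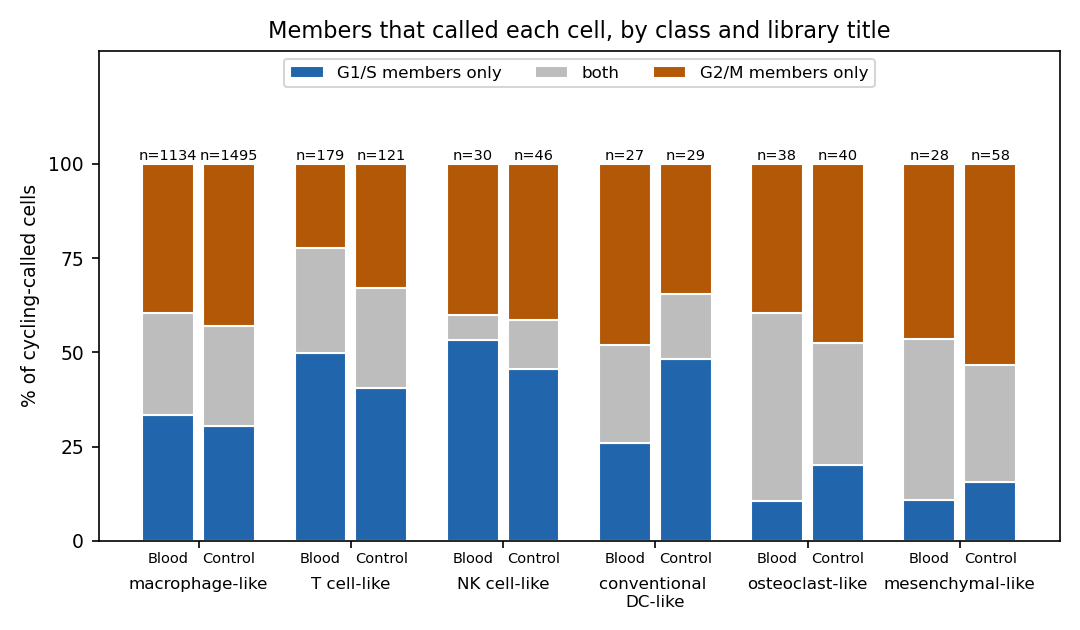
Cells called cycling in 6 classes, split by whether G1/S members, G2/M members or both passed the limit (y axis, percent of called cells; n is the number of called cells), with the library titled Blood left of the library titled Control in each pair. G1/S-only cells are 49.7% of called T cell-like cells titled Blood and 40.5% titled Control, and 10.5% and 20% of called osteoclast-like cells.

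In NK cell-like cells 29 members were measured, with a median log2 ratio of -0.57, and 13 were at least 1.5-fold lower titled Blood, where 1.69% of 7679 measured genes were; 0 were at least 1.5-fold higher, where 2.51% were. Here the waves stood alike, at medians of -0.58 over 10 G1/S and -0.54 over 16 G2/M members. Some of these passed the limit of 10 CPM only titled Control, such as Nusap1, with 9.67 CPM titled Blood and 17.8 CPM titled Control. This lowers the medians: without the limit they were -0.44 over all 12 G1/S and -0.48 over all 23 G2/M members. Hmgb2, Tubb5 and Stmn1 had the most UMIs, with 513, 184.6 and 79.6 CPM titled Blood, against 594, 287.6 and 134.7 CPM titled Control. Ube2c was lowest, with 11.97 CPM titled Blood (26 UMIs) and 28.7 CPM titled Control (71 UMIs), and Pcna was highest, with 52.0 and 48.9 CPM. With the mean of each cell's CPM 4 of 21 measured members were at least 1.5-fold lower, and their median was -0.38. Without the shared barcodes, 7 and 4 cells, 10 of 29 were, and the median was -0.47. The 7 cells titled Blood held 8.02% of all UMIs of that class, but 2.68% of its G1/S and 1.19% of its G2/M UMIs. The 10 macrophage markers summed to 1477 CPM in called and 605 CPM in other NK cell-like cells titled Blood and to 543 and 634 CPM titled Control. Without cells that had at least 5 C1q UMIs, 14 of 26 measured members were at least 1.5-fold lower and their median was -0.64. Over the same 23 G2/M members the median was -0.48 with those cells and -0.45 without them. Over the same 12 G1/S members it was -0.44 and -0.47. The part of macrophage RNA in these differences was not tested.

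Conventional DC-like cells went the other way: of 36 measured members 28 were above 0, with a median log2 ratio of 0.24. Of these, 0 were at least 1.5-fold higher, where 1.66% of 7533 genes were, and Ube2c alone was at least 1.5-fold lower, with 53.6 CPM titled Blood and 83.8 CPM titled Control, where 1.63% were. Tubb5 had 618.7 CPM titled Blood and 508.4 CPM titled Control, Hmgb2 607.9 and 460.1, and Stmn1, the member with the highest log2 ratio (0.51), 170.2 and 118.2. Intervals lay above 1 for 8 members, below 1 for 2 and spanned 1 for 26. These levels include the cells of shared barcodes, 4 titled Blood and 3 titled Control. With them the G2/M members other than Hmgb2 had 1895 UMIs titled Blood and 1994 titled Control, and without them 1637 and 1472. The ratios of single members without them are not given. The 10 macrophage markers summed to 928 CPM in these cells titled Blood and 1906 CPM titled Control, which was not tested further. In monocyte-like cells only 12 members were measured, with a median of -0.20, and 0 passed 1.5-fold in either direction, where 1.22% of 7143 genes were lower and 0.686% higher. Hmgb2 had 303.2 CPM titled Blood and 306.2 CPM titled Control, Tubb5 192.4 and 243.1, and Cenpa 50.3 and 49.9. Stmn1 was lowest, with 17.6 and 26.2 CPM, and Ube2c highest, with 14.01 and 11.1 CPM.

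**Figure D5:**
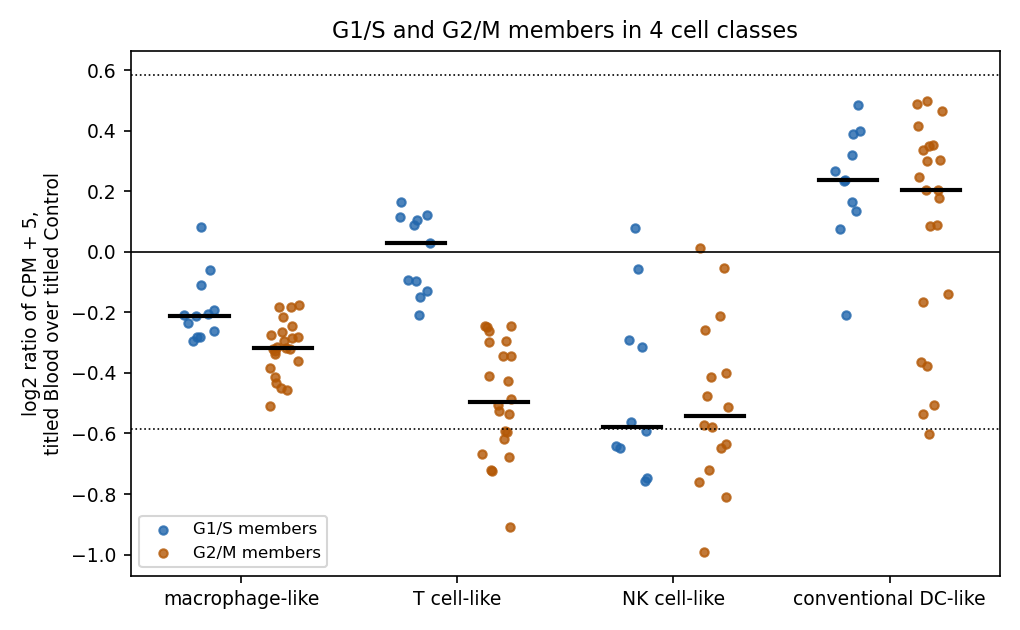
Log2 ratio of CPM plus 5, titled Blood over titled Control (y axis), of each measured G1/S and G2/M member in 4 classes; black bars are medians and dotted lines mark 1.5-fold. In T cell-like cells the G1/S median is 0.03 and the G2/M median -0.50, while in conventional DC-like cells most points lie above 0.

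In neutrophil-like cells, which rarely passed the call, some members still had high levels. Only 9 members were measured there, on 3252090 UMIs titled Blood and 259745 UMIs titled Control, and with so few UMIs titled Control 21.4% of all measured genes were at least 1.5-fold higher and 13.8% lower, so the counts of 3 and 3 members past these limits carry little. Hmgb2 had 638 CPM titled Blood and 593 CPM titled Control, more than in macrophage-like cells, while Top2a had 10.8 CPM titled Blood (35 UMIs) and was at 0 titled Control. Tubb5 had 105.5 and 42.3 CPM and Cenpa 21.2 and 15.4 CPM. Aurkb had the lowest log2 ratio on 7 UMIs titled Blood and 3 titled Control. Pcna had 104 UMIs titled Blood and 0 titled Control. By contrast Top2a, itself a gene of the call, stood in nearly the order of the called shares, with 405.2 CPM titled Blood and 235.5 CPM titled Control in osteoclast-like cells, 320.1 and 380.7 in mesenchymal-like cells, 105.0 and 134.6 in T cell-like cells, 47.4 and 83.7 in NK cell-like cells and 10.8 and 13.4 in monocyte-like cells. Mcm6 had 94.9 and 84.1 CPM in T cell-like cells, beside 61.7 and 76.8 CPM in macrophage-like cells.

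In the small osteoclast-like class, 85 cells titled Blood and 98 titled Control, Top2a had a ratio of 1.72 (1.54 to 1.92) and Cenpe one of 1.71 (1.40 to 2.10); without shared barcodes they had 1.51 (1.29 to 1.78) and 1.88 (1.40 to 2.55). Mcm4 had a ratio of 0.965 (0.685 to 1.35), and 1.08 (0.663 to 1.74) without them. In the mesenchymal-like class, 54 and 102 cells, Bub1b had 52.8 CPM titled Blood and 36.1 CPM titled Control and Tyms 74.2 and 108.3 CPM, but without shared barcodes Bub1b rested on 3 and 17 UMIs and Tyms on 7 and 15. Top2a turned there, with 36 UMIs titled Blood and 38 titled Control and a ratio of 1.89 (1.16 to 3.06), against 0.841 with them. Without shared barcodes only 40 and 53 osteoclast-like and 7 and 18 mesenchymal-like cells remain.

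Called cells also differed from other cells of their class in genes that had no part in the call. Those of replication and mitosis belong to the same waves as the members. Their higher levels therefore describe the cells called and are not an independent check. In macrophage-like cells 551 of 7774 non-members were at least 1.5-fold higher and 62 at least 1.5-fold lower in both libraries; in each alone, 7.71% titled Blood and 7.53% titled Control were higher and 1.25% and 1.25% lower. All 32 and 33 measured genes of replication origins and forks were at least 1.5-fold higher in called cells, as were all 12 and 11 measured histone genes. Of 64 further mitosis genes 62 titled Blood and 63 titled Control were at least 1.5-fold higher, and 63 were above 0 in each library. Pttg1, securin, was the exception below 0, with 36.2 CPM in called and 38.6 CPM in other cells titled Blood and 45.7 and 47.3 CPM titled Control. Hist1h2ap had the largest ratio, 309 CPM in called and 11.7 CPM in other cells titled Blood and 378 and 16.02 CPM titled Control. It was followed by Hist1h2ae, Pclaf, Hist1h1b, Hmmr, Kif23, Knl1, Kif15, Cdca3 and Ckap2l, with the lowest log2 ratio at 3.06, for Ckap2l titled Control. Foxm1, a driver of the mitotic wave, had 37.6 CPM in called and 2.06 CPM in other cells titled Blood and 34.4 and 2.75 CPM titled Control. Among CDK inhibitors, Cdkn2c (p18) was higher in called cells, at 47.9 and 4.40 CPM titled Blood and 50.7 and 4.53 CPM titled Control, and Cdkn1a (p21) was not, at 321 and 404 CPM titled Blood and 346 and 449 CPM titled Control.

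Lower in called macrophage-like cells were Thbs1, with 97.0 CPM in called and 249 CPM in other cells titled Blood and 128 and 332 CPM titled Control, then Slfn5, Plac8, Ccl5, Il1r2, Vegfa, Il1b, Ltb4r1, Junb and Btg2. Il1b, the inflammatory cytokine, had 452 and 881 CPM titled Blood and 560 and 1082 CPM titled Control, and Btg2, an antiproliferative gene, 192.4 and 340.2 CPM titled Blood and 249 and 432 CPM titled Control. Interferon-stimulated genes were lower in called cells, 22 of 23 measured genes below 0 titled Blood (median -0.43, 9 at least 1.5-fold lower) and 24 of 25 titled Control (median -0.44, 7 at least 1.5-fold lower). MHC class II genes were all below 0, at medians of -0.42 over 7 titled Blood and -0.58 over 7 titled Control. The 10 macrophage markers summed to 25438 CPM in called and 28501 CPM in other cells titled Blood and to 27442 and 29050 CPM titled Control. Neutrophil markers summed to 164 and 262 CPM titled Blood and 127 and 187 CPM titled Control, none at 0. Their part in these differences was not tested. The macrophage-like clusters also differ widely in called share, as given above, and the part of that mix was not tested either.

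In T cell-like cells 511 of 7624 non-members were at least 1.5-fold higher in called cells in both libraries and 131 at least 1.5-fold lower, or 399 lower where the call needs 3 members; in each alone, 8.76% titled Blood and 11.9% titled Control were higher and 4.56% and 7.49% lower. Pclaf, a partner of the replication clamp, led with 408 CPM in called and 5.40 CPM in other cells titled Blood and 525 and 4.27 CPM titled Control. Hist1h2ap, Hist1h1b, Hist1h2ae, Spc24, Cdca3, Aspm, Hmmr, Cit and Knl1 followed. The T cell-like clusters differ widely in called share, as given above, and the part of that mix in these differences was not tested. Tcf7, a factor of naive and memory T cells, had 26.5 CPM in called and 84.4 CPM in other cells titled Blood and 30.4 and 143.6 CPM titled Control. The lymph node homing receptor Ccr7 had 35.7 and 89.8 CPM titled Blood and 62.7 and 195.2 CPM titled Control, and S1pr1, which guides exit from lymph nodes, 39.4 and 93.1 CPM titled Blood and 47.1 and 159.6 CPM titled Control. Tnfsf8, Ramp3, Klf3, Kdm5b, Zbtb20, Ifit1 and Slfn5 were the others of the 10. Slfn5 was thus among the 10 lowest in both classes. E2f1 was at 35.7 CPM in called and 2.98 CPM in other T cell-like cells titled Blood and 37.3 and 2.85 CPM titled Control, beside 56.99 and 27.1 CPM in called and other macrophage-like cells titled Blood and 56.7 and 26.9 CPM titled Control.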

How the data were processed

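Both tumour libraries were made with 10x Genomics 3' v3 reagents from minced tissue digested at 37 °C for 45 minutes, per the labels' protocols. The authors deposited UMI counts for each gene and barcode, unscaled, from Cell Ranger 3.1.0 and mm10 (per the submitters' processing notes). The annotation release is not stated. Reads fall at the transcript end. Where members are ranked by CPM within a class, the rank describes UMIs counted and is not read as a rank of transcript amounts.

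Barcodes were kept with 300 or more genes, 500 or more UMIs and no more than 20% mitochondrial UMIs (11617 titled Blood and 8985 titled Control). Scrublet in scanpy 1.11.5 removed 278 (2.39%) and 157 (1.75%) as doublets, where 9.29% and 7.19% were expected, and some doublets therefore remain. Cells were clustered on 2000 variable genes without the members and 4 further cell cycle lists, using 30 components, 15 neighbours and Leiden resolution 1 (leidenalg 0.10.2), with ambiguous clusters split at 0.5. Names came from markers; score limits (0.5, with a margin of 0.35) were chosen with the clusters in view, and 12 of 36 clusters stayed unnamed. The members, lists and markers were chosen with earlier results of these data known.

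Thinning to 1500 UMIs was without replacement. Shares have exact Clopper-Pearson intervals, ratios of shares score intervals and CPM ratios exact conditional binomial intervals, all at 95%. The pseudocount of 5 in log2 ratios shrinks those of low genes. No p-value was made from cells. Class sums were 72903228 UMIs titled Blood and 76668046 titled Control in macrophage-like cells, and 6744737 and 4576761 in T cell-like cells.

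Genes were named by rule: every member in macrophage-like cells; in other classes of at least 100 cells the 3 members of highest CPM and those with the lowest and highest log2 ratio; and 10 non-members each way between called and other cells, among genes with 50 CPM or more, without mitochondrial, ribosomal, predicted, globin, immunoglobulin and T cell receptor genes. Other named members, list genes and clusters were chosen after their values were seen.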

Additional observations from a re-analysis of the deposited data

How the results depend on the processing

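No paired analysis was possible because each title has 1 library and no result comes from a test. The ratio of called shares in macrophage-like cells stayed below 1 under every alternative run; it was 0.919 without thinning, where most deep cells pass, 0.865 with a limit of 1 member and 0.846 with each library clustered on its own. In NK cell-like cells it was 0.364 with a limit of 3 members. In monocyte-like cells it was above 1 at Leiden resolution 2 (1.27), with each library clustered on its own (1.28) and with doublets kept (1.41), so it has no stable direction; the cause was not tested.

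The G1/S-only share of called macrophage-like cells titled Blood was 30.4% at 1000 UMIs, 38.2% at 3000 UMIs and 27.1% with 3 members, and 25.6% titled Control with 3 members; that of T cell-like cells titled Blood was 38.2% with 3 members. The member median in macrophage-like cells was -0.31 with pseudocount 1, -0.31 as a mean over single-cell CPM values, -0.29 with totals scaled by the median ratio of genes, -0.30 at resolution 2, -0.24 with each library clustered on its own, -0.26 with clusters of equal weight and -0.24 without shared barcodes; 1 member was at least 1.5-fold lower with pseudocount 1. In T cell-like cells the main median was -0.28, and it was -0.34 with pseudocount 1, -0.060 as a mean over single-cell CPM values, -0.51 with each library clustered on its own, -0.35 with doublets kept, -0.38 with clusters of equal weight, -0.23 without shared barcodes and -0.24 without C1q cells. The count of members at least 1.5-fold lower there was 8, and 0, 13, 3 and 5 with single-cell means, each library on its own, no shared barcodes and no C1q cells. Non-members lower in called T cell-like cells numbered 399 with 3 members, against 131. The other 110 values of alternatives, and 74 of 76 values of single members with doublets kept, moved by less than counting error or, for counts of genes, by less than 1.5 times. The alternatives on shared barcodes for levels and wave shares, single copies, C1q cells, 1 cluster and the thinning seed were chosen after seeing the data.

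With 1 library per title, animals, batch and treatment cannot be told apart, and the contradictory labels leave the direction of the comparison unknown. Few cells limit the rare classes.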
